A study of Mus musculus with 18 samples.

Results

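The genes described here are 10 genes of cornification and of the squamous protease system, Klk7, Klk6, Krtdap, Calm4, Crct1, Krt10, Krt1, Lor, Ivl and Sprr1a, followed across 4 groups of mouse mammary tumours. They were found by the gene symbol in the platform annotation, and 10 of 10 were measured, by 11 of the 22575 array features, among 16887 genes in all. Krt1 had 2 features and the other members 1 each. The members were chosen by their measured log2 ratios in the comparisons of iFGFR1 tumours, Klk7 first among them, so the members' values in that group are given as a description, with no p.

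The study measured RNA of 18 primary mammary tumour samples on arrays with 2 channels, the tumour RNA in Cy5 and total RNA of whole mouse in Cy3 as a common reference. All titles carry FVB, a mouse strain name, MMTV, the mammary tumour virus promoter used to drive transgenes in mammary epithelium, and Wnt1. There were 6 arrays of Wnt1 alone, 4 of Wnt1_iFGFR1, 4 of Wnt1_iFGFR2 and 4 of Wnt1_iR2, shortened below to iFGFR1, iFGFR2 and iR2 for the last 3. What the abbreviations stand for is not spelled out in the labels, nor is any age, agent, dose or time, and iR2 was treated as a group of its own. The titles carry 18 different numbers whose meaning is not stated, so it is not recorded whether each array is a separate animal. The p-values measure only how far these arrays scatter, which may be in part technical. A level below is a log2 ratio of tumour over reference, and a difference is one of mean log2 ratios. Because the reference holds whole-body RNA, skin included, a negative level says only that the tumour RNA held less of a transcript than that reference.

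Stratified squamous epithelium, such as the epidermis, renews from a basal layer of cells with keratins 5 and 14. Cells that leave it make keratins 1 and 10, then assemble beneath the membrane a cornified envelope of loricrin, involucrin and small proline-rich proteins that transglutaminases cross-link. Kallikrein-related proteases, held in check by the inhibitor Spink5, cut the desmosomes so that cornified cells are shed. Mammary epithelium is glandular and does not normally cornify, although squamous change can occur in mammary tumours.

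Tumour identity and individual arrays were checked first. Luminal keratin Krt18 lay between 1.83 and 4.07 on all 18 arrays. The Fgfr1 level was 1.32 to 2.15 in iFGFR1 against -0.089 to 0.65 on the other 14 arrays, higher on every array of the group named for it. The Fgfr2 level was -0.81 to 0.40 in iFGFR2, -0.67 to 0.14 in iR2 and -0.29 to 0.51 in Wnt1, so Fgfr2 was not higher in iFGFR2 or iR2, and this check does not bear out either name. These 2 groups are therefore known only by their labels. An array stood apart for the members in each of 2 groups. Wnt1 replicate 3 correlated at 0.764 to 0.793 with the other Wnt1 arrays over all genes, which correlated among themselves at 0.839 to 0.916, and at 0.832 to 0.857 with the iR2 arrays. Its Fgfr1 level was 0.22, inside the range of its group. The iFGFR1 arrays correlated among themselves at 0.736 to 0.828 and the iFGFR2 arrays at 0.720 to 0.876. Values as low as those of Wnt1 replicate 3 thus occurred within both of these groups. The iR2 arrays correlated at 0.933 to 0.962 among themselves, replicate 4 included, so that this array stood apart for few genes. Values without them are given beside the members that they set apart.

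In iFGFR1 tumours, 5 members were higher than in Wnt1, namely the proteases Klk7 and Klk6, the keratinocyte differentiation protein Krtdap, the calcium-binding protein Calm4 and the cornified-region gene Crct1. The keratins Krt10 and Krt1 and the envelope genes Lor, Ivl and Sprr1a did not pass the threshold given below. Ivl had the largest difference of these, at 0.67 (SE 0.31). The fit across all genes called 5 of 10 members, all higher (adjusted p under 0.05), where 15.4% of all genes passed in either direction and 8.38% were higher. Against iFGFR2 the count was 4 of 10 (2.13% of all genes in either direction, 0.924% higher), since Calm4 missed the threshold, and against iR2 it was 5 of 10 (11.7% and 6.84%). The share of genes lower in iFGFR1 than in iR2 was 4.81%, with 0 of 10 members. These counts were fixed by the choice of the members, so they are no test of the set and are read no further. The name cornification is a label of the set and not a result for all of its genes. Missing the threshold does not show that a member was unchanged.

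**Figure D1:**
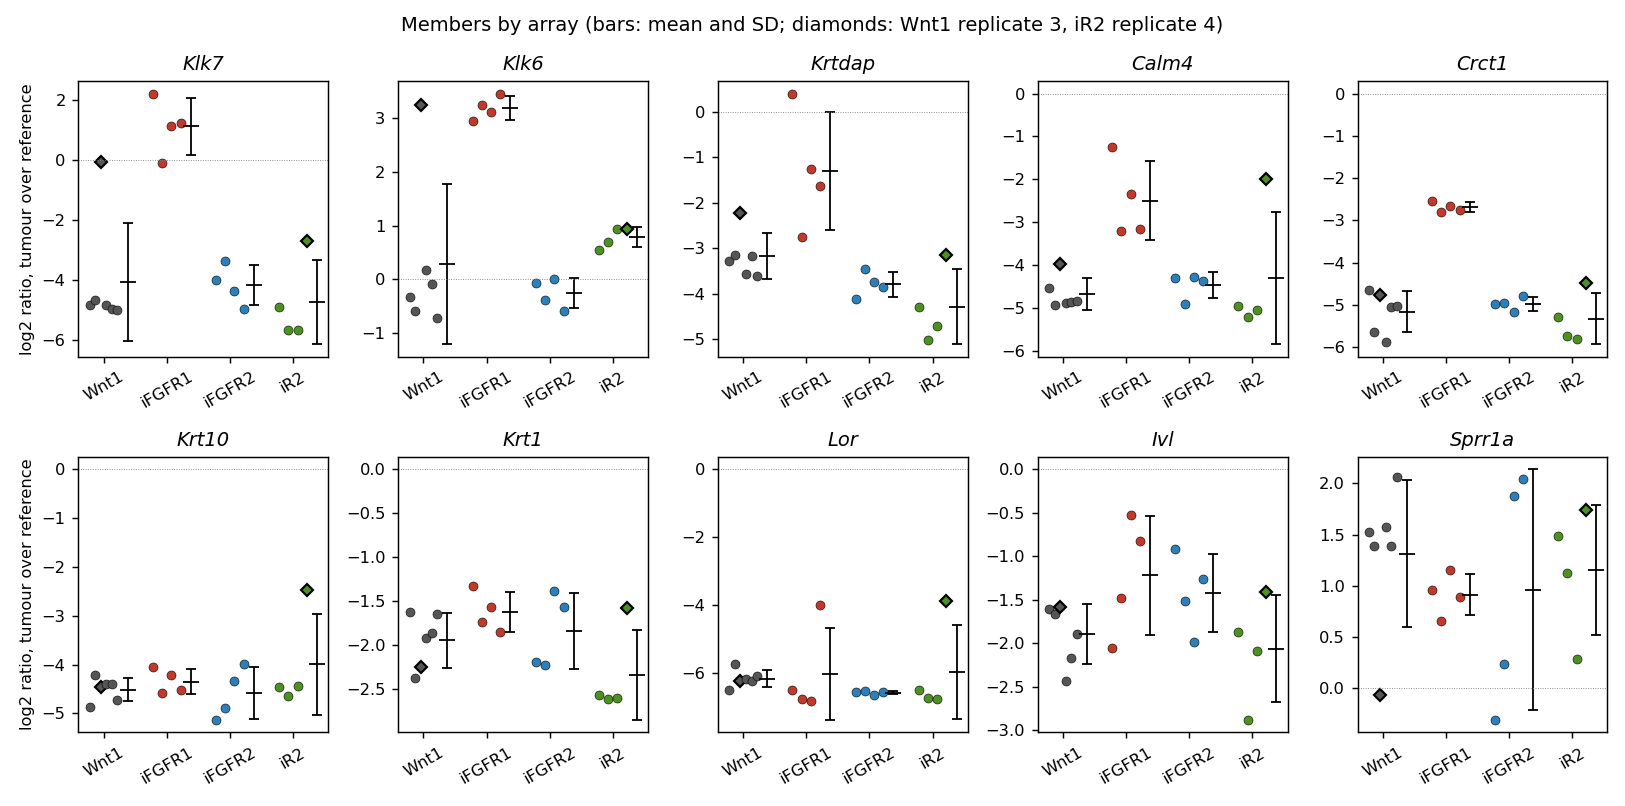
Log2 ratio of tumour over reference for each of the 10 members on each of 18 arrays, by group, with the mean and SD as bars. Diamonds mark Wnt1 replicate 3, which reached 3.24 for Klk6, and iR2 replicate 4, which reached -3.88 for Lor, and the 4 iFGFR1 arrays lie above all others only for Crct1.

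Klk7, a chymotrypsin-like protease of the stratum corneum that cuts corneodesmosomes, had levels of 2.21, -0.10, 1.15 and 1.24 on the 4 iFGFR1 arrays. In Wnt1 it ran from -4.99 to -0.078 with a median of -4.83. It was -3.99, -3.38, -4.38 and -4.96 in iFGFR2 and -4.89, -5.66, -5.67 and -2.70 in iR2. The highest Wnt1 value was that of replicate 3, just above the lowest iFGFR1 array, and the other 13 arrays outside iFGFR1 lay at -2.70 or lower, iR2 replicate 4 being the highest of them. Without Wnt1 replicate 3, the Wnt1 level was -4.86 ± 0.13 (SD, n = 5) instead of -4.06 ± 1.95 (n = 6). The difference between iFGFR1 and Wnt1 then widened from 5.19 to 5.98. Klk7 had a larger SD over the 18 arrays, 2.67, than 99.994% of all genes.

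Klk6, a trypsin-like kallikrein found in skin and in squamous tumours, had levels of 2.94, 3.23, 3.11 and 3.46 in iFGFR1. Wnt1 ran from -0.72 to 3.24 with a median of -0.21, and replicate 3 again held the highest value, inside the iFGFR1 range. Levels in iFGFR2 were -0.063, -0.39, 0.007 and -0.58. Those in iR2 were 0.56, 0.71, 0.94 and 0.94, every one above every iFGFR2 array and above the 5 Wnt1 arrays other than replicate 3, whose highest was 0.17. Klk6 was above the reference on all iFGFR1 and iR2 arrays, while the Wnt1 mean was 0.28 with replicate 3 and -0.31 without it. Its iFGFR1 level was tight at 3.19 ± 0.22 (SD, n = 4). The iFGFR1 minus Wnt1 difference was 2.90 (SE 0.51) with replicate 3 and 3.49 without it.

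Crct1, a cysteine-rich gene of the epidermal differentiation complex, had levels of -2.54, -2.79, -2.65 and -2.75 in iFGFR1. Wnt1 ran from -5.87 to -4.64 with a median of -5.04. Levels were -4.98, -4.97, -5.17 and -4.78 in iFGFR2 and -5.29, -5.73, -5.80 and -4.48 in iR2. Every iFGFR1 array lay above all 14 others, which was so for 1 of 10 members and for 0.87% of all genes. The spread in iFGFR1 was 0.11 (SD, n = 4), the smallest of the 10 members in that group. The difference from Wnt1 was 2.48 (SE 0.26), or 5.58-fold, and Wnt1 replicate 3 was not high for this gene, at -4.76.

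Krtdap, a secreted protein of differentiating keratinocytes, had levels of 0.40, -2.75, -1.25 and -1.63 in iFGFR1, the largest spread of the 5 higher members in that group (SD 1.30, n = 4). In Wnt1 it ran from -3.62 to -2.22 with a median of -3.23, and replicate 3 was the highest. Levels were -4.11, -3.45, -3.74 and -3.85 in iFGFR2 and -4.28, -5.02, -4.70 and -3.14 in iR2. The lowest iFGFR1 array lay inside the Wnt1 range and above every iFGFR2 and iR2 array. The difference from Wnt1 was 1.86 (SE 0.44), and 2.05 without Wnt1 replicate 3.

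Calm4, a calmodulin-like protein made in mouse skin as keratinocytes differentiate, had levels of -1.25, -3.21, -2.35 and -3.17 in iFGFR1. Wnt1 ran from -4.94 to -3.97 with a median of -4.85. Levels were -4.29, -4.91, -4.28 and -4.38 in iFGFR2 and -4.95, -5.22, -5.04 and -1.99 in iR2. Every iFGFR1 array was above every Wnt1 and iFGFR2 array, while iR2 replicate 4 was above 3 of the 4 iFGFR1 arrays. The iR2 level was -4.30 ± 1.54 (SD, n = 4) with that array and -5.07 ± 0.14 (n = 3) without it. The difference of iFGFR1 from Wnt1 was 2.18 (SE 0.49).

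Across these comparisons, every iFGFR1 array was above every Wnt1 array for 2 of 10 members (4.88% of all genes), above every iFGFR2 array for 5 of 10 (2.81%) and above every iR2 array for 4 of 10 (13%). The comparisons share the iFGFR1 arrays, and these counts too describe the choice of the set. Replicate 1 was the iFGFR1 array with the highest Klk7, Krtdap, Calm4 and Crct1, and replicate 4 had the highest Klk6.

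Among the suprabasal keratins, the members Krt10 and Krt1 did not separate iFGFR1 from Wnt1. Krt13 and Krt2, which are no members, are given with the other lists below. Krt10, the type I keratin of the suprabasal epidermis, had levels of -4.06, -4.58, -4.22 and -4.52 in iFGFR1, -4.87 to -4.22 in Wnt1 with a median of -4.42, and -5.13, -4.89, -4.33 and -3.98 in iFGFR2. In iR2 it was -4.45, -4.65, -4.43 and -2.46. The groups overlapped, and only iR2 replicate 4 left the range of the other arrays. The Krt10 difference between iFGFR1 and Wnt1 was 0.16 (SE 0.33).

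Krt1, the type II partner of keratin 10, was measured by 2 features that disagreed. One lay between -5.32 and -3.08 over the 18 arrays and the other between -0.17 and 1.31. The first, the lower of them, followed Krt10 on iR2 replicate 4, at -3.08 against -5.12, -5.32 and -5.06 on the other iR2 arrays. The second did not, at -0.063 against -0.021, 0.10 and -0.14. On the second feature every iR2 array lay below every iFGFR1 array, at 0.33 to 1.07, and every iFGFR2 array, at 0.26 to 1.31. Its difference between iR2 and iFGFR2 was -0.84 (SE 0.24, limma adjusted p = 0.0917 over all features). The gene value is the mean of both features. It was -1.33, -1.73, -1.56 and -1.85 in iFGFR1, -2.38 to -1.62 in Wnt1 with a median of -1.89, -2.19, -2.22, -1.38 and -1.56 in iFGFR2, and -2.57, -2.61, -2.60 and -1.57 in iR2. The first 3 iR2 arrays were the lowest of all 18, and replicate 4 lay among the other groups. The difference of the gene value between iFGFR1 and Wnt1 was 0.33 (SE 0.24), while the features taken singly gave 0.25 (SE 0.36) and 0.40 (SE 0.22).

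Lor, loricrin, the main protein of the cornified envelope, had the lowest levels of the set, and only 0.0947% of all genes had a lower mean over the arrays. Levels were -6.49, -6.76, -6.81 and -4.001 in iFGFR1, -6.49 to -5.74 in Wnt1 with a median of -6.20, and -6.55, -6.53, -6.64 and -6.55 in iFGFR2. In iR2 they were -6.50, -6.72, -6.75 and -3.88. A single array in iFGFR1 and a single one in iR2 were above all other arrays, and the other 3 iFGFR1 arrays lay at or under the lowest Wnt1 array. The iFGFR1 minus Wnt1 difference was 0.14 (SE 0.51) and turned to -0.53 without iFGFR1 replicate 4. Whether a signal this far under the reference was above background cannot be read from ratios alone.

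Ivl, involucrin, an early envelope precursor, had levels of -2.06, -1.48, -0.52 and -0.82 in iFGFR1, -2.44 to -1.58 in Wnt1 with a median of -1.78, -0.92, -1.51, -1.98 and -1.26 in iFGFR2, and -1.87, -2.88, -2.09 and -1.41 in iR2. All groups overlapped, and the iFGFR1 minus Wnt1 difference was 0.67 (SE 0.31). Sprr1a, a small proline-rich envelope precursor that also rises in stressed epithelia, was the only envelope gene among the members with group means above the reference. Its levels were 0.96, 0.66, 1.15 and 0.89 in iFGFR1, -0.067 to 2.06 in Wnt1 with a median of 1.46, -0.31, 0.24, 1.88 and 2.05 in iFGFR2, and 1.49, 1.12, 0.28 and 1.74 in iR2. The iFGFR1 and Wnt1 arrays overlapped only through Wnt1 replicate 3, the lowest of its group, and the other 5 Wnt1 arrays, at 1.39 to 2.06, lay above every iFGFR1 array. The iFGFR1 minus Wnt1 difference was -0.40 (SE 0.43), and -0.67 without that array. The iFGFR2 and iR2 arrays overlapped with both.

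**Figure D2:**
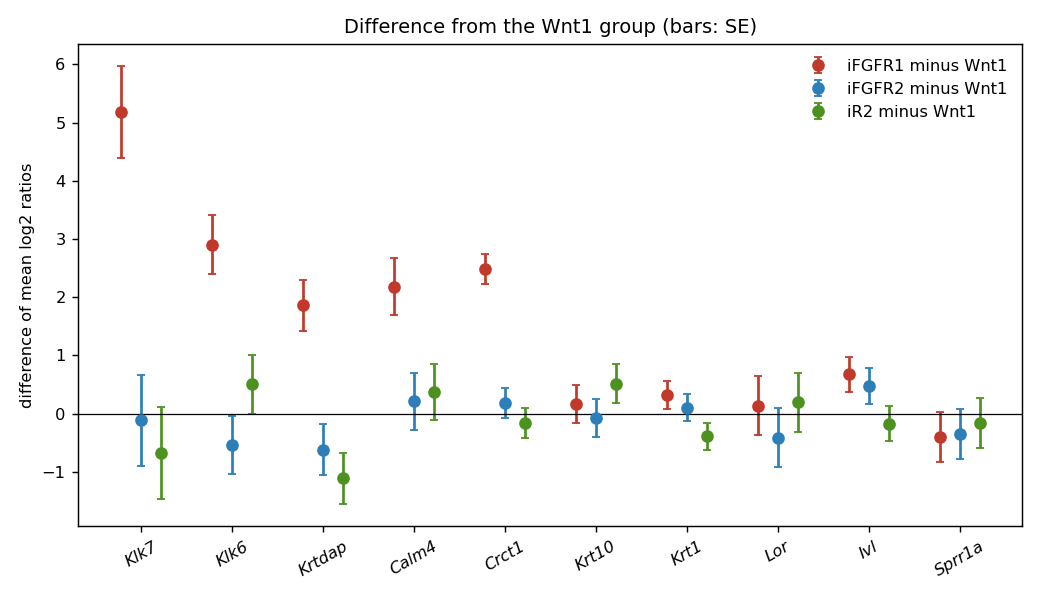
Difference of mean log2 ratios from the Wnt1 group for each member, with its SE as bars, for iFGFR1, iFGFR2 and iR2, which share the 6 Wnt1 arrays. The 5 members on the left have iFGFR1 differences of 1.86 to 5.19, and Krt10, Krt1, Lor, Ivl and Sprr1a have differences of -0.40 to 0.67.

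The choice of the members is not known to rest on the comparisons that leave iFGFR1 out. These still share the Wnt1, iFGFR2 and iR2 arrays with the choosing comparisons, so their results are not free of the choice. In iFGFR2 against Wnt1, 0 of 10 members passed the limma test (3.43% of all genes did), 0 were above Wnt1 on every array (2.5% of genes), and 0 had an unadjusted p under 0.05. Differences ran from -0.62 to 0.47, and the lowest adjusted p was 0.398, for Ivl at 0.47 (95% interval -0.17 to 1.11). For Klk7 the difference was -0.12 with an interval of -1.76 to 1.53, and it turned to 0.68 without Wnt1 replicate 3 (adjusted p = 0.437). For Klk6 it was -0.54, and 0.052 without that array (adjusted p = 0.906), and for Crct1 it was 0.19 with an interval of -0.35 to 0.72.

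In iR2 against Wnt1, 0 of 10 members passed (7.1% of all genes did, 3.91% higher), 0 were above Wnt1 on every array (6.24% of genes), and Krtdap alone had an unadjusted p under 0.05. Its difference was -1.11 (95% interval -2.04 to -0.19, adjusted p = 0.129). It passed under 3 of 28 alternatives, with adjusted p from 0.00606 to 0.743 over them. Klk6 differed by 0.50 (interval -0.55 to 1.56, adjusted p = 0.608). Without Wnt1 replicate 3 its difference was 1.10 and its limma adjusted p 0.00244, and without that array and iR2 replicate 4 they were 1.04 and 0.00851, in a range of 0.00244 to 0.801 over the alternatives. Whether Klk6 passed here thus depended on Wnt1 replicate 3. Between iR2 and iFGFR2, 0 of 10 members passed (1.34% of all genes did, 1.07% lower), and 0 had an unadjusted p under 0.05. Klk6 was 1.04 higher in iR2 (interval -0.11 to 2.20, adjusted p = 0.385), and every iR2 array was above every iFGFR2 array, as for 1 of 10 members and 4.35% of all genes. It passed at 0.0165 without Wnt1 replicate 3, which enters this comparison only through the shared estimate of spread, and not at 0.0577 without that array and iR2 replicate 4, in a range of 0.0165 to 0.573.

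By mean level with all arrays, Klk7 and Krtdap ran iFGFR1, then Wnt1, iFGFR2 and iR2, and Crct1 ran iFGFR1, iFGFR2, Wnt1 and iR2. For Calm4 the order was iFGFR1, iR2, iFGFR2 and Wnt1, and for Klk6 it was iFGFR1, iR2, Wnt1 and iFGFR2. Some of these orders rest on 1 array. Without Wnt1 replicate 3 the Wnt1 mean lay below that of iFGFR2 for Klk7, at -4.86 against -4.18, and for Klk6, at -0.31 against -0.26. Without iR2 replicate 4 iR2 was the lowest group for Calm4, at -5.07. Below iFGFR1, neighbours in each order overlapped array by array. For Klk6 in iR2 and Wnt1 they did so only through Wnt1 replicate 3, and for Krtdap in iFGFR2 and iR2 and for Calm4 in the same groups only through iR2 replicate 4. None of these lower neighbours differed past the threshold with all arrays.

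**Figure D3:**
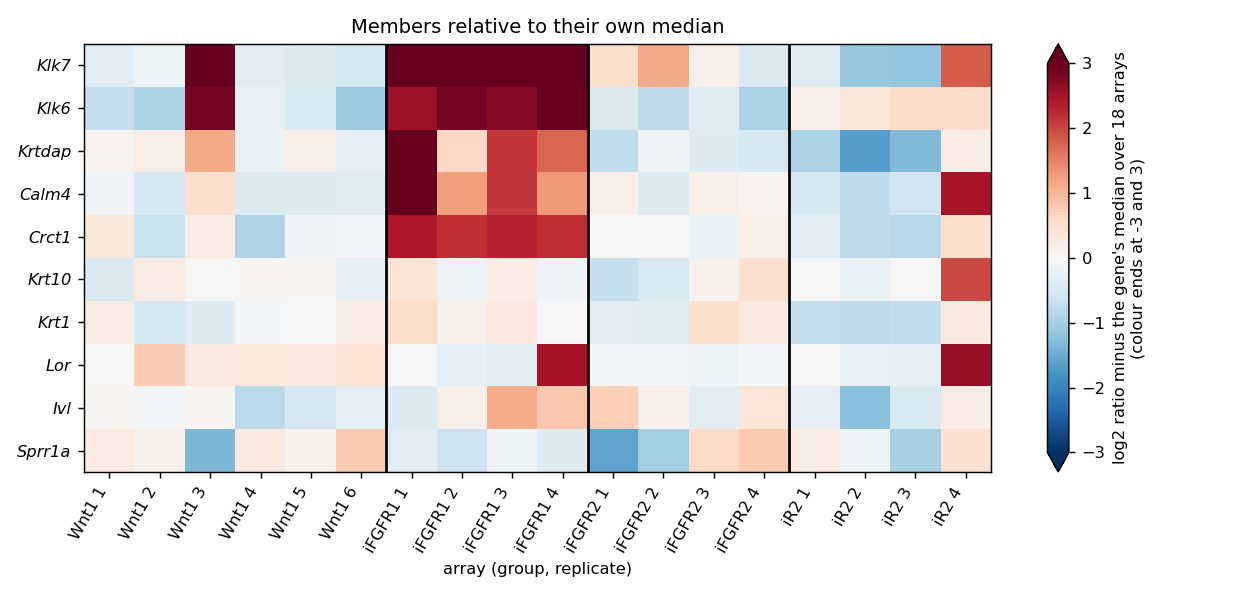
Each member's log2 ratio on each of the 18 arrays minus that member's median over the arrays, with colour ending at -3 and 3. Klk7 and Klk6 are high on the 4 iFGFR1 arrays and on Wnt1 replicate 3, whereas iR2 replicate 4 is high for Klk7, Calm4, Krt10 and Lor and only slightly so for Klk6.

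Array iR2 replicate 4 held a pattern of its own. It was the highest iR2 array for 10 of 10 members, where 24.6% of all genes had their highest iR2 value there. For 5 of 10 members it exceeded every other iR2 array by over 1 log2 unit, which 0.195% of all genes did. The margins were 2.96 for Calm4, 2.62 for Lor, 2.19 for Klk7, 1.97 for Krt10 and 1.14 for Krtdap, but 0.004 for Klk6. Without this array the iR2 mean was -5.41 instead of -4.73 for Klk7, -4.67 instead of -4.28 for Krtdap, -4.51 instead of -3.997 for Krt10, -2.59 instead of -2.34 for Krt1 and -6.66 instead of -5.96 for Lor. The difference of iR2 from Wnt1 then turned from 0.37 to -0.40 for Calm4 and from 0.19 to -0.50 for Lor, and that from iFGFR2 from 0.17 to -0.61 for Calm4 and from 0.61 to -0.088 for Lor, none of them past the threshold. On this array Krt10, Lor and the lower Krt1 feature were high together with Klk7 and Calm4, while Klk6 and the other Krt1 feature were not. This was the reverse of the iFGFR1 arrays for Klk6, Krt10 and, on 3 of 4 of them, Lor. Among the 41 other measured genes of the cornified envelope and surface, 28 were highest on this iR2 array and 8 by over 1 unit. These 8, named here after their values were seen, were Kprp, Hrnr, Lce1a1, Lce1f, Lce1d, Flg, Lce1b and Lce1i. Kprp, a proline-rich keratinocyte protein, was at -3.70 against -6.52 to -5.90 on the other iR2 arrays, and Flg, profilaggrin of the granular layer, at -3.38 against -4.63 to -4.40.

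Melanocyte genes moved with this array. Of 7 measured markers, 6 were highest in iR2 replicate 4, and the mean of the list was 0.081 there against -1.47 to -0.45 on the other iR2 arrays. The list mean ran from -1.60 to -1.02 in Wnt1, -1.35 to -0.90 in iFGFR1 and -1.45 to -0.49 in iFGFR2. Dct, a melanin enzyme, was at -0.20 against -4.41 to -1.60 on the other iR2 arrays. Of the hair follicle markers 4 of 13 were highest there, and of the sebaceous markers 2 of 7, near the 24.6% of all genes. The part of skin cells in the values of this array was not tested.

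**Figure D4:**
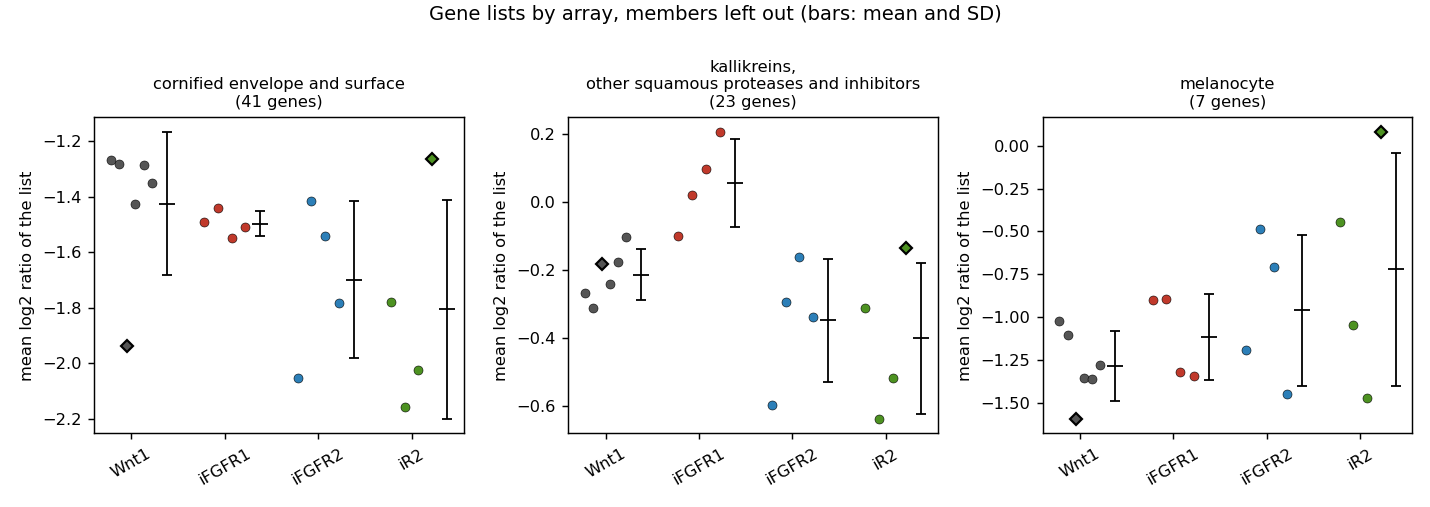
Mean log2 ratio per array of 3 gene lists with the members left out, by group, with mean and SD as bars and diamonds for Wnt1 replicate 3 and iR2 replicate 4. For the 41 envelope and surface genes iR2 replicate 4 lies at -1.26 and the other iR2 arrays at -2.16 to -1.78, for the 7 melanocyte genes it lies at 0.081, and Wnt1 replicate 3 is the lowest Wnt1 array for both of these lists.

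Wnt1 replicate 3 showed a different combination. It exceeded every other Wnt1 array by 4.59 for Klk7 and 3.07 for Klk6, by 0.94 for Krtdap and by 0.58 for Calm4, and it was narrowly the highest for Ivl, at -1.58. It was lower than the highest of them for Crct1, Krt10, Krt1 and Lor, and the lowest for Sprr1a. A margin over 1 unit was found for 2 of 10 members and 2.19% of all genes. Of the 41 envelope and surface genes, 0 were highest on this Wnt1 array and 25 were lowest, where 23.8% of all genes were highest and 22.5% lowest there, with a list mean of -1.94 against -1.43 to -1.27 on the others. Luminal markers were highest there for 5 of 10 genes, and fibroblast markers for 6 of 9, with a fibroblast mean of -1.04 against -2.24 to -1.81 on the other Wnt1 arrays. The share of these cells in the kallikrein levels of the array was not tested.

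Over the 18 arrays the 5 higher members had Pearson correlations of 0.683 to 0.907 in 10 pairs (median 0.834). They are grouped by their high iFGFR1 values, so these correlations follow in part from the choice and are no support for a shared pattern. After each group's mean was taken off, the range was 0.207 to 0.795 (median 0.596), and without Wnt1 replicate 3 and iR2 replicate 4 it was -0.473 to 0.821 (median 0.185, 16 arrays). Klk7 and Krtdap kept 0.821 and Krtdap and Calm4 kept 0.795 within groups on these 16 arrays, whereas Klk7 and Klk6 fell from 0.780 to -0.148. Within groups the 2 kallikreins thus moved together only while those arrays were kept. Pairs of the other 5 members had a median correlation of 0.285 over all arrays. These are descriptions over arrays that share their groups and the reference.

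Promoter sequence is shown for 3 members that passed in iFGFR1 against Wnt1 and 3 that did not. The split runs between genes often treated as 1 programme. The RefSeq promoter table of assembly GRCm38.p6, 250 bases before to 50 after each start, held 8 of the 10 members. Each line gives the 150 bases before the annotated start, 5′ to 3′ on the gene's strand, with capitals for TGANTCA, the AP-1 site bound by Fos and Jun dimers, and for TATAAA, the TATA box, both searched on both strands.
Klk7: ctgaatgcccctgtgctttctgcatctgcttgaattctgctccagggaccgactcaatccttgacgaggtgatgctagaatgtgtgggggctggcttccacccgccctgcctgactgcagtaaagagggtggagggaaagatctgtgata
Krtdap: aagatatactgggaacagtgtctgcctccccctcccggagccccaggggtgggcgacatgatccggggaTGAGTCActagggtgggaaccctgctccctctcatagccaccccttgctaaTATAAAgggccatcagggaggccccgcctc
Calm4: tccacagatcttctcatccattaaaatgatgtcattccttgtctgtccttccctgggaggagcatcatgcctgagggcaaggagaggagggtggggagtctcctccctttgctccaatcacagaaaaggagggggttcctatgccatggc
Lor: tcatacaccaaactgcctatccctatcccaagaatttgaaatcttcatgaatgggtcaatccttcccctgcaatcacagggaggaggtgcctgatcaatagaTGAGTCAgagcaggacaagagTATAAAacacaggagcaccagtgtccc
Ivl: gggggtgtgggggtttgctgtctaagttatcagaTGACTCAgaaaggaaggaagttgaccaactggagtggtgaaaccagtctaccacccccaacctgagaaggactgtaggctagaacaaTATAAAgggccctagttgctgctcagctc
Sprr1a: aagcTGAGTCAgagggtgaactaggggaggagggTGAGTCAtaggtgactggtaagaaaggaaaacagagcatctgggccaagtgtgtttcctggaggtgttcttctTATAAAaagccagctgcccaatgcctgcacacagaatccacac
They lie at chr7:43811144-43811293 (plus strand), chr7:30787755-30787904 (plus), chr13:3837607-3837756 (plus), chr3:92083143-92083292 (minus), chr3:92573736-92573885 (minus) and chr3:92485882-92486031 (minus), in that order. In the full windows the AP-1 letters occurred in 4 of 8 members, Krtdap, Lor, Ivl and Sprr1a, and in 7.81% of 32851 promoters. The TATA letters occurred in 5 of 8, the same 4 and Krt10, and in 13.6% of promoters. CTTTGA, the core of the site bound by the TCF and LEF factors of Wnt signalling, occurred in 2 of 8, Klk7 and Krtdap, and in 16% of promoters. The Klk7 match lay outside the stretch printed. The Krtdap match ran across the left edge of its stretch, so only a part of it is printed, unmarked. Of the higher members, Krtdap had the AP-1 letters, as Lor, Ivl and Sprr1a did, and the windows of Klk7, Klk6 and Calm4 did not hold them. A match is only the presence of the letters.

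Klk7 and Klk6 are neighbours on chromosome 7 among the kallikrein genes, and 19 of 26 protein-coding genes between Klk14 and Klk1 were measured. Of the 17 that are no members, 2 rose in iFGFR1 against Wnt1 by the limma test and 0 fell, where 8.38% of all genes rose and 7.06% fell. The count of 2 is not read as a result about the region. Klk5, beside Klk6 and an activator of Klk7 in skin, rose by 1.08 (SE 0.24, adjusted p = 0.00567), and every iFGFR1 array, at -1.46 to -0.46, was above every Wnt1 array, at -2.29 to -1.81. Klk10 rose by 1.38 (SE 0.26, adjusted p = 0.00143), with levels of 1.76 to 2.81 against 0.42 to 1.09. Klk8, which lies beside Klk7 on the other side and has skin functions of its own, did not pass, at -0.11 (SE 0.16), nor did Klk9, Klk11, Klk12 and Klk4. Wnt1 replicate 3 was not high for Klk5, at -1.88, or for Klk10, at 0.81. The Klk1b genes are near-identical copies whose features may share signal.

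**Figure D5:**
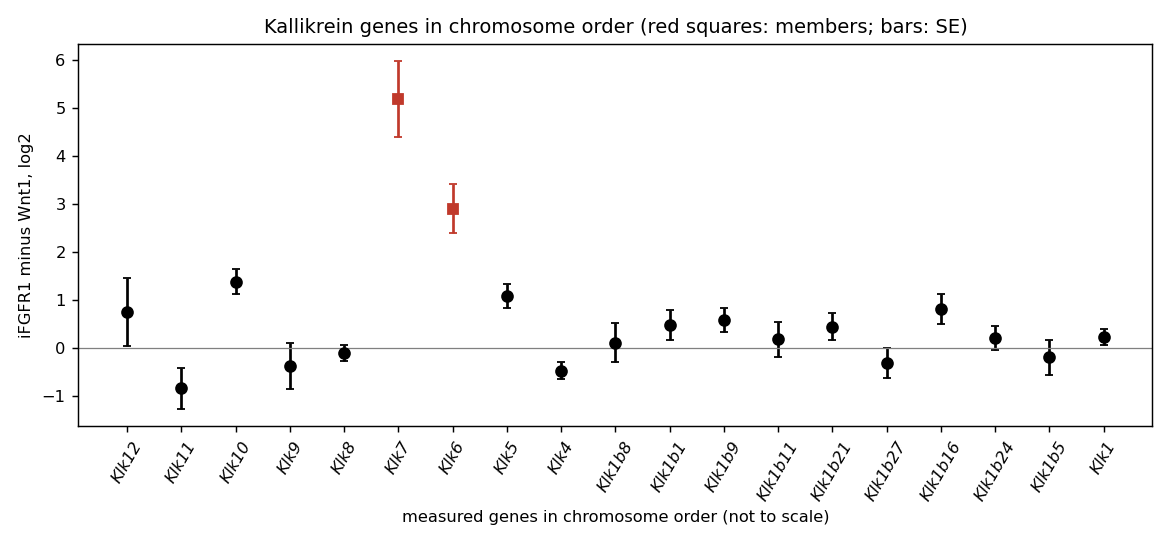
Difference of mean log2 ratio between iFGFR1 and Wnt1 for the 19 measured kallikrein genes in chromosome order, with SE as bars and members as red squares. Klk7 at 5.19 and Klk6 at 2.90, the members chosen for these values, lie between Klk8 at -0.11 and Klk5 at 1.08.

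Crct1, Lor, Ivl and Sprr1a lie in the epidermal differentiation complex on chromosome 3. Of 58 protein-coding genes from S100a9 to S100a11, 36 were measured, and 32 of these are no members. Of the 32, 2 rose in iFGFR1 against Wnt1 (S100a9 and Rptn) and 2 fell (Sprr4 and Lce1a2). Over all genes 8.38% rose and 7.06% fell, so these counts are not above the shares of all genes. The median difference of the 32 was 0.13. Crct1, at 2.48, was chosen for that value, so it is not set against them.

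The other squamous genes were counted in 7 lists, 143 genes measured, which were chosen with earlier results of these data known. In iFGFR1 against Wnt1, 23 rose and 12 fell, 16.1% and 8.39% of the 143 beside 8.38% and 7.06% of all genes, with a median difference of 0.032 beside 0.019. Of 41 envelope and surface genes, 1 rose and 3 fell, the latter including Evpl, the envelope scaffold envoplakin, at -1.88 (SE 0.54, adjusted p = 0.0223). Among 18 suprabasal keratins and desmosome genes 4 rose, including Krt13 at 1.16 (SE 0.27), Dsc1, a desmosomal cadherin of the upper epidermis, at 1.28 (SE 0.36), and Krt2 at 0.72 (SE 0.22). Of 23 kallikreins, other proteases and inhibitors, 6 rose and 0 fell. Klk5 and Klk10, given above, are among the 6. Spink5, which inhibits Klk5 and Klk7, rose by 1.31 (SE 0.34, adjusted p = 0.014), and Ctsl, a lysosomal protease also active in epidermis, by 1.24 (SE 0.26).

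Of 14 barrier lipid genes 6 rose and 0 fell, with Aloxe3, a lipoxygenase of the skin barrier, at 1.21 (SE 0.28), Nipal4 at 0.98 (SE 0.22) and Elovl4, which lengthens the fatty acids of ceramides, at 0.91 (SE 0.25). The 10 calcium-binding genes split into 4 that rose and 2 that fell. S100a8 and S100a9, the calprotectin subunits made by stressed keratinocytes and by neutrophils, rose by 2.56 (SE 0.38) and 1.59 (SE 0.27), and Calml3, a calmodulin-like protein of epithelia, fell by 2.73 (SE 0.48). Of 25 differentiation factors 2 rose, including Cebpb at 0.83 (SE 0.23), and 3 fell, with Notch1 at -1.12 (SE 0.22) and Prdm1 at -0.99 (SE 0.31). Basal keratinocyte genes, which basal mammary cells also make, fell in 4 of 12 and rose in 0, with Krt14 at -1.68 (SE 0.33) and Krt5 at -1.22 (SE 0.28).

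Other cell types moved as well in iFGFR1 against Wnt1. Fibroblast markers fell in 7 of 9, with a list mean of -3.65 to -2.86 in iFGFR1 against -2.24 to -1.04 in Wnt1, and luminal markers rose in 5 of 10, at 2.34 to 2.78 against 1.63 to 2.53. Neutrophil markers rose in 3 of 9, S100a8, S100a9 and the chemokine receptor Cxcr2, the last at 0.83 (SE 0.20, adjusted p = 0.00979). They fell in 1, Ltf, at -1.70 (SE 0.55, adjusted p = 0.0435). The neutrophil list mean was higher on every iFGFR1 array, at -2.17 to -1.81, than on every Wnt1 array, at -2.69 to -2.21. The granule genes Mpo, at 0.053 (SE 0.19), and Elane, at 0.014 (SE 0.20), did not pass. Hair follicle markers rose in 1 of 13, Krt27 at 2.51 (SE 0.54), and fell in 1, sebaceous markers rose in 1 of 7, Cidea at 1.68 (SE 0.22), and melanocyte, adipocyte and skeletal muscle markers passed in 0 of 7, 0 of 5 and 0 of 6. In RNA of whole tumours, fewer cells of a type and less RNA per cell cannot be told apart. The part of these cell types in the members' values was not tested.

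In iFGFR2 against Wnt1, 3 of the 143 other squamous genes rose and 7 fell, 2.1% and 4.9% beside 1.97% and 1.46% of all genes, among them Perp, a desmosome-associated membrane protein, at -1.33 (SE 0.36), and Serpinb5 at -1.09 (SE 0.27). In iR2 against Wnt1, 4 rose and 7 fell, 2.8% and 4.9% beside 3.91% and 3.19%. Klk5 fell by 0.91 (SE 0.24, adjusted p = 0.0295), opposite to its rise in iFGFR1, and Ugcg, which makes glucosylceramide for the barrier, fell by 1.03 (SE 0.23). Sbsn, suprabasin, rose by 1.50 (SE 0.43). Krt13 rose by 1.16 (SE 0.27, limma adjusted p = 0.0167), so its rise was not particular to iFGFR1. Both counts were unstable: that of 10 for iFGFR2 was 26 without Wnt1 replicate 3 and 0 without Wnt1 replicate 6 or without iFGFR2 replicate 1, and that of 11 for iR2 was 2 without iR2 replicate 1. In iFGFR1 against iFGFR2, 9 rose and 2 fell (6.29% and 1.4% beside 0.924% and 1.21%), with Klk5 1.89 higher (SE 0.27, adjusted p = 0.000735) and Klk10 1.75 higher (SE 0.28, adjusted p = 0.00224). In iFGFR1 against iR2, 22 rose and 6 fell, 15.4% and 4.2% beside 6.84% and 4.81%. In iR2 against iFGFR2, 0 rose and 2 fell, 0% and 1.4% beside 0.272% and 1.07%.

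The genes whose pattern was most like the members' were named by the highest Pearson correlation over the 18 arrays. With the mean of the 10 standardised members they were Lypd3 (0.845), Stfa2 (0.842), Stfa3 (0.826), Tmem54 (0.807) and Teddm3 (0.807). Lypd3 is a surface protein of stratified epithelium and Stfa2 and Stfa3 are cysteine protease inhibitors of the stefin A family, a family of near-identical genes whose features may share signal. With Klk7 alone they were Teddm3 (0.925), S100a8 (0.912), Padi4 (0.912), Psat1 (0.892) and Krt76 (0.888). By rank (Spearman) the correlations with Klk7 were lower, at 0.843, 0.676, 0.713, 0.688 and 0.822 in the same order. S100a8 was at -3.80 on Wnt1 replicate 3, against -6.27 to -5.72 on the other Wnt1 arrays, as Klk7 and Klk6 were high there. Within groups the correlation with Klk7 was 0.793 for Teddm3 and 0.479 for Krt76. These genes were picked as the highest of all genes, against members chosen by their iFGFR1 values. Their correlations are therefore no support for a shared pattern.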

How the data were processed

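RNA of 18 mouse mammary tumour samples was measured on 2-colour arrays, with 1 array per sample. The authors deposited 1 table of log ratios for 22575 features, read here as log2 of tumour (Cy5) over whole-mouse reference (Cy3). Per the labels, the tumour RNA was extracted with a column kit and the reference with TRIZOL. The dyes come from the labels, and the log base and direction are not stated in the table, so every fold size rests on that reading. Scanning, background correction and normalization were not given in the sources used here. It holds 0 empty cells, values run from -9.03 to 7.57, and column medians from -0.023 to 0.009. No intensities are given, so detection above background is unknown, and the number of arrays limits the precision.

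Features of 1 symbol (18658) were averaged into 16887 genes, and features with several symbols (30) or none (3887) were left out. The main analysis is limma 3.58.1 in R 4.3.3 with lmFit and eBayes over all 18 arrays and no covariate. P-values were adjusted by Benjamini-Hochberg over all genes within a comparison, at a threshold of 0.05, two-sided, and the code was tested on simulated data. Groups came from the channel with tumour RNA. No p is given for members in the 3 comparisons with iFGFR1. The members, gene lists and rules were chosen with earlier results of these data known. Named are all members, up to 4 genes per list and comparison by smallest p past the threshold, measured kallikreins, and the 5 genes of highest correlation with the members' mean and with Klk7. Genes printed outside this rule are the checks Krt18, Fgfr1 and Fgfr2, the neutrophil genes Mpo and Elane and the genes of iR2 replicate 4, which were picked after their values were seen. The alternatives were quantile normalization, scaling to a common median absolute deviation, median centring, array weights, a robust and trended prior, only the arrays compared, the number in the titles as covariate, the feature of highest mean, the genes of larger SD, and each array left out, plus leaving out both arrays that stood apart, which was added after seeing the data.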

Additional observations from a re-analysis of the deposited data

Results flagged for a closer look

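Among 40 sets of 1 member in 1 group, 10 held an array whose gap to the nearest other array was large beside the group's range by Dixon's criterion. Chance gives this in about 5% of sets. The sets share the same arrays and are not independent, so 10 of 40 was not tested against that share. Most of the 10 come from Wnt1 replicate 3 and iR2 replicate 4. Wnt1 replicate 3 was set apart as the highest for Klk7 (-0.078), Klk6 (3.24) and Krtdap (-2.22) and as the lowest for Sprr1a (-0.067). In iR2, replicate 4 was the highest array for Calm4 (-1.99), Krt10 (-2.46), Krt1 (-1.57) and Lor (-3.88). Lor was also set apart on iFGFR1 replicate 4 (-4.001), and Calm4 on iFGFR2 replicate 2 as the lowest of its group (-4.91).

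All arrays of 1 group lay above the Wnt1 mean and all of another below it in 3 cases. For Klk6 this held for iFGFR1 above and iFGFR2 below, a difference of 3.44, and for iFGFR2 below and iR2 above, where iFGFR2 minus iR2 was -1.04. For Krtdap it held for iFGFR1 above and iFGFR2 below, a difference of 2.48. For the differences with iFGFR1 no p is given, because the members were chosen there, and the opposite sides themselves were not tested. That between iR2 and iFGFR2 had a limma adjusted p of 0.385. Both cases of Klk6 rest on Wnt1 replicate 3: without it the Wnt1 mean is -0.31, and iFGFR2 replicates 1 and 3, at -0.063 and 0.007, lie above it. The case of Krtdap holds without it, at a Wnt1 mean of -3.36.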

How the results depend on the processing

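Of 1680 recomputed member differences, 1582 counted as the same. In comparisons with iFGFR1 this meant the same sign and a move smaller than the spread, whether or not the threshold was crossed. In the others it meant the same sign and side of the threshold. The 84 that moved took another sign, however small the change, or with iFGFR1 moved by at least the spread. In comparisons without iFGFR1, 14 passed the threshold where the main value had not. Another sign was taken by 70 values, 0 of them of differences past the threshold in the main analysis. The member count stayed at 0 for iFGFR2 against Wnt1 in all alternatives. It was also 5 throughout for iFGFR1 against Wnt1, but the members were chosen by those values and the count supports nothing. For iR2 against Wnt1 the member count of 0 became 3 with scaling to a common median absolute deviation, 2 with array weights, 1 with only the arrays compared and 1 without both arrays that stood apart, and 0 to 1 with 1 array left out. For iR2 against iFGFR2 it became 4 with that scaling and 1 with only the arrays compared, and 0 to 1 with 1 array left out. For iFGFR1 against iR2 it was 1 instead of 5 with the title number as covariate, which separates iR2 from the other groups nearly as the labels do.

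The counts of other squamous genes were less stable. For iFGFR2 against Wnt1 (10) they were 6 with scaling, 1 with only the arrays compared, 23 without both arrays and 0 to 26 with 1 left out. For iR2 against Wnt1 (11) they were 7 with quantile normalization, 40 with scaling, 49 with array weights, 0 with the title number, 18 without both arrays, 22 with only the arrays compared and 2 to 14 with 1 left out. For iFGFR1 against iFGFR2 (11) they were 7 with scaling, 6 with array weights, 4 with only the arrays compared and 7 to 12 with 1 left out. For iFGFR1 against iR2 (28) they were 57 with scaling, 7 with the title number and 16 to 32 with 1 left out. For iR2 against iFGFR2 (2) they were 39 with scaling, 10 with array weights, 1 with the robust and trended prior, 1 with only the arrays compared, 0 with quantile normalization, the title number or the genes of larger SD, and 0 to 4 with 1 left out. For iFGFR1 against Wnt1 the count of 35 ran from 26 to 43 with 1 left out. Single arrays that moved a count by over 1.5 times were, for iFGFR2 against Wnt1, all Wnt1 and iFGFR2 arrays, iFGFR1 replicate 3 and iR2 replicates 1 and 2. For iR2 against Wnt1 they were Wnt1 replicates 1, 2, 4 and 6 and iR2 replicates 1 to 3, and for iFGFR1 against iR2 they were iR2 replicates 1 to 3. For iFGFR1 against iFGFR2 they were iFGFR1 replicates 3 and 4 and iFGFR2 replicate 1. The 1 member passing with an array left out was Klk6 without Wnt1 replicate 3, in both comparisons of iR2. The causes of these shifts were not tested. No paired analysis was possible because the replicate numbers follow accession order and pair no samples. Low members such as Lor have ratios far under the reference, and their signal over background is unknown.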
